A study of Homo sapiens with 8 samples.

Results

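The 8 genes described here, of 19770 in the files, are on chromosome 11 and were chosen by symbol because they lie in the beta-globin cluster or its flanks, next to the gamma-globin genes HBG1 and HBG2 at which the activators were aimed. They are the embryonic globin gene HBE1, the globin pseudogene HBBP1, the long noncoding RNA BGLT3, the gene model AC104389.5, the olfactory receptor gene OR51B5, and the tripartite motif genes TRIM6, TRIM5 and TRIM22. HBG2 serves only as the measure of how strongly the target itself was switched on.

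RNA-seq was done in HEK293T cells, a human embryonic kidney line, in 4 groups of 2 libraries each at 72 h after transfection. The paper states that a pool of 4 gRNAs against the HBG1/HBG2 locus was used for DREAM and SAM. The gRNAs of the control and dCas9-VPR groups are not stated in its main text. The control was dCas9 (a Cas9 that binds but does not cut DNA) with MCP-mCherry, a fluorescent protein fused to the coat protein that binds MS2 loops in the gRNA. The DREAM group had dCas9 with MCP-MSN, an engineered transactivation module, the SAM group had dCas9-VP64 with MCP-p65-HSF1, and in the dCas9-VPR group the activator was fused directly to dCas9. Both libraries of a group are duplicates of 1 cell line, transiently transfected, and nothing in the labels places them on separate days, so their spread may be technical. The 3 comparisons with control all use the same 2 control libraries, and the data are bulk values, in which more cells with a transcript and more transcript per cell cannot be told apart.

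In the beta-globin cluster the globin genes stand in the order in which they are used during development, and a distant enhancer region, the locus control region, drives them in red blood cell precursors. HBE1 is the embryonic beta-like chain and HBG1 and HBG2 are the fetal ones. HBBP1 no longer encodes a globin, and BGLT3 is a noncoding RNA transcribed from the stretch just downstream of the gamma-globin genes, where both have been studied in connection with fetal globin expression. A block of olfactory receptor genes, silent in most tissues, flanks the cluster, followed by TRIM genes whose products include antiviral restriction factors.

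All positions are on hg38, chromosome 11, as given in the files. BGLT3 (chr11:5244554-5245547) and HBBP1 (chr11:5241105-5243538) lie 2722 and 4731 bases downstream of HBG1, on the same minus strand. HBE1 begins 13561 bases, and OR51B5 48660 bases, on the opposite side of the pair. TRIM6, TRIM5 and TRIM22 begin 341325, 408411 and 434913 bases from it, TRIM6 and TRIM22 on the plus strand and TRIM5 on the minus strand, with TRIM22 lying inside the span listed for TRIM5. AC104389.5 (chr11:5254392-5678435, minus strand) is unlike the others: its downstream (3′) end lies inside the second exon of HBG2 and its upstream end inside the span of TRIM5. It is not in Gencode release 44, so its exons were not examined here.

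The sequences of the second exon are shown as a place where reads of HBG2 could be taken for those of HBE1, HBBP1 or AC104389.5. Other exons were not compared base by base. They are from Gencode release 44 on hg38, written 5′ to 3′ on the minus strand, for HBG2 (chr11:5254292-5254514), HBE1 (chr11:5269454-5269676) and HBBP1 (chr11:5243106-5243328). In the HBG2 line the capitals mark the bases inside the span of AC104389.5, and in the other lines they mark bases that differ from HBG2.
HBG2: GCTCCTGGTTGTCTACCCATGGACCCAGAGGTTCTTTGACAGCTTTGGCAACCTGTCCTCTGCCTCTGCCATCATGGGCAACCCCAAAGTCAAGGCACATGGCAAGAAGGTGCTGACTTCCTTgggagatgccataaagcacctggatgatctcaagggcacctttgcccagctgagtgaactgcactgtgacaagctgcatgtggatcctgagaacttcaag
HBE1: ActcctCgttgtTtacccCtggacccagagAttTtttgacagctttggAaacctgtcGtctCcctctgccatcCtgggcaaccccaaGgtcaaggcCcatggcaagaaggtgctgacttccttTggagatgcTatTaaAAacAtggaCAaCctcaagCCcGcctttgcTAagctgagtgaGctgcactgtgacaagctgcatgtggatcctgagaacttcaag
HBBP1: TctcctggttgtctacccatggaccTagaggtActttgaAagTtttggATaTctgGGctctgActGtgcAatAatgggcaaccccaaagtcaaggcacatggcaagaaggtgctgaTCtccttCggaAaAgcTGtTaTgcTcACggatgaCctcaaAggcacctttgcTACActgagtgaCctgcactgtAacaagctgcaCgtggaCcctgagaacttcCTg
Each exon is 223 bases long. The HBE1 exon differs from that of HBG2 at 27 bases (87.9% identical) and the HBBP1 exon at 38 (83.0% identical), while 123 bases of the HBG2 exon lie inside the span of AC104389.5. Over all transcript models in release 44 the longest run shared exactly with HBG2 was 50 bases for HBE1, 43 for HBBP1, 37 for OR51B5 and 10 for BGLT3, all shorter than the 75-base reads. HBE1 and OR51B5 also share a far upstream first exon of 84 bases, 37 of which are in a long model of HBG2, so reads from there cannot be assigned to 1 of these genes. How reads that matched several genes were shared out by the authors' Bayesian quantification was not tested.

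The target itself was strongly raised by every activator. HBG2 was 1.29 and 0.837 CPM (read counts scaled to the total of the library) in the control libraries, 2187 and 2874 with DREAM, 707 and 860 with SAM, and 218 and 201 with dCas9-VPR. The log2 fold changes against control were 10.66, 8.98 and 7.09, so the target strength ran DREAM, SAM, dCas9-VPR with no overlap between groups. Fold changes here and below are on the log2(CPM + 0.5) scale, which understates changes of low genes, and a gene was called when it changed by over 2-fold at an adjusted p under 0.05 by limma over the 15122 genes tested. Of the 8 genes, 6 passed the filter for testing; BGLT3 and OR51B5 did not, and HBBP1 and AC104389.5 passed only through activated libraries, so that the calls among genes passing the filter are a description.

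Against control, 3 of the 8 genes were called with DREAM, AC104389.5 and HBBP1 higher and TRIM22 lower, where 2.55% of all tested genes were called. With SAM 1 was called, AC104389.5, against 4.34% of all tested genes, and with dCas9-VPR again AC104389.5 alone, against 1.1%. Mean CPM of BGLT3, HBBP1 and AC104389.5 fell from DREAM to SAM to dCas9-VPR to control, the order of the target. HBE1 and OR51B5 had the same order among the activators, but their control means lay above those with SAM and dCas9-VPR. TRIM22 ran the opposite way among the activators, and TRIM5 and TRIM6 were highest with SAM.

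**Figure D1:**
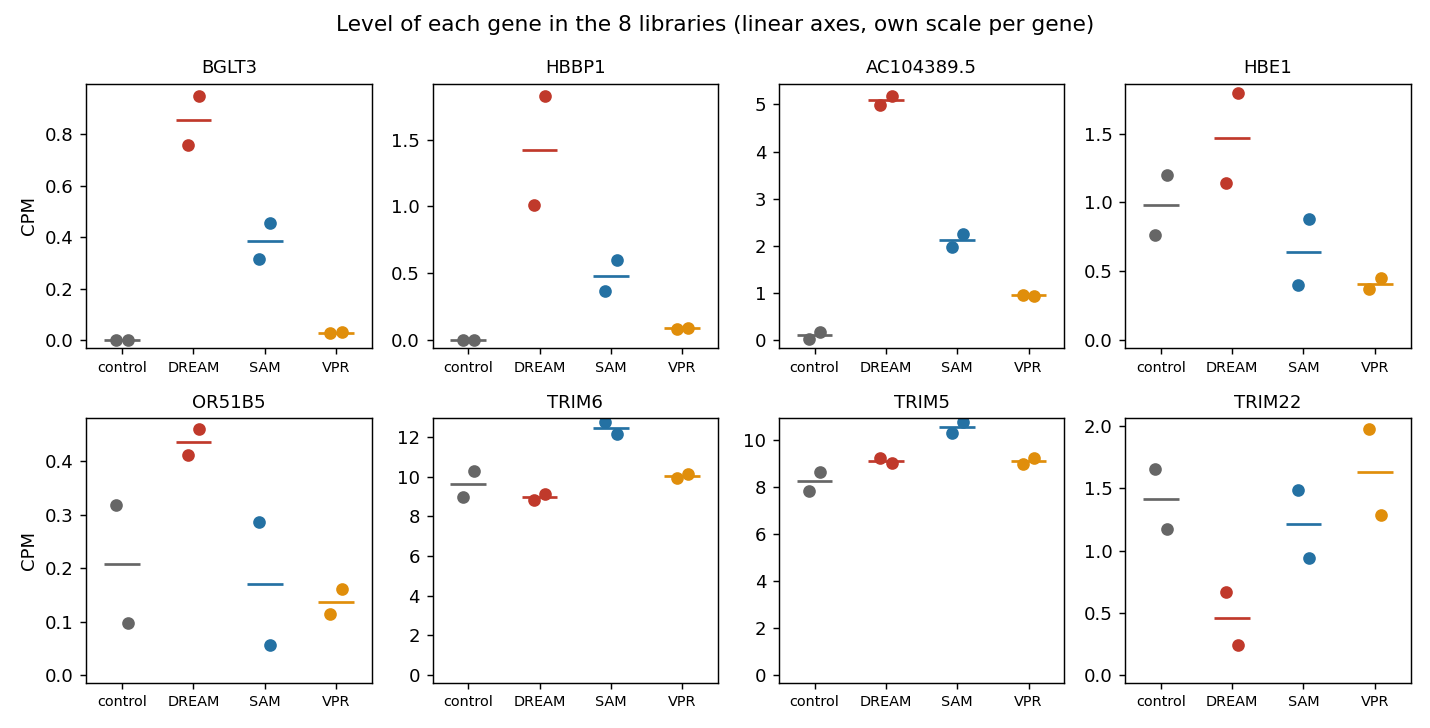
CPM of each gene (vertical axes, linear and scaled per gene) in the 2 libraries of each group (points) with the group mean (bar); VPR is dCas9-VPR. BGLT3, HBBP1 and AC104389.5 are at or near 0 in control and fall from DREAM to SAM to dCas9-VPR without overlap, and TRIM22 is lowest in both DREAM libraries.

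BGLT3 was listed at 0 in both control libraries. It was 0.759 and 0.948 CPM with DREAM, 0.314 and 0.455 with SAM, and 0.0286 and 0.0321 with dCas9-VPR. No 2 groups overlapped. At the depths estimated from the steps between low values these correspond to 24 and 27 reads with DREAM, 11 and 16 with SAM and 1 read in each dCas9-VPR library, so a difference between dCas9-VPR and control was not detectable at this depth. Because of the filter BGLT3 was not tested in the main fit. Without the filter its log2 fold change was 1.43 (SE 0.16, adjusted p = 0.000196 by limma) with DREAM, 0.82 (adjusted p = 0.00297) with SAM and 0.09 (adjusted p = 0.779) with dCas9-VPR. Against a control at 0 these too depend on the pseudocount: the log2 difference was 3.25 at 0.1 and 0.89 at 1 with DREAM, and 2.26 and 0.47 with SAM.

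HBBP1, the pseudogene next to BGLT3, was likewise listed at 0 in both control libraries. It was 1.01 and 1.83 CPM with DREAM (32 and 52 reads), 0.372 and 0.597 with SAM (13 and 21 reads), and 0.0859 and 0.0963 with dCas9-VPR (3 reads in each). The 4 groups again did not overlap. The log2 fold change was 1.91 (SE 0.25, adjusted p = 0.000419 by limma) with DREAM, 0.97 (SE 0.25, adjusted p = 0.00995) with SAM, below the 2-fold threshold, and 0.24 (SE 0.25, adjusted p = 0.525) with dCas9-VPR. Against a control at 0 these values depend on the pseudocount: with DREAM 3.87 at a pseudocount of 0.1 and 1.25 at 1, and with SAM 2.52 at 0.1, where HBBP1 was called. HBBP1 reached the filter only narrowly, through both DREAM libraries, and was not tested when either was left out or under median-of-ratios scaling; without the filter it was called with DREAM (adjusted p = 0.000185). With SAM it was called without SAM replicate 1 (1.13, adjusted p = 0.0267).

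AC104389.5, the model whose downstream end lies within HBG2, showed the largest change of the 6 genes tested in all 3 comparisons with control. It was 0.0376 and 0.184 CPM in control, 4.99 and 5.18 with DREAM, 1.97 and 2.26 with SAM, and 0.966 and 0.946 with dCas9-VPR. The groups did not overlap, and the spread within each activated group was small beside the gaps between them. The log2 fold change was 3.20 (SE 0.18, adjusted p = 2.54e-06 by limma) with DREAM, 2.11 (SE 0.18, adjusted p = 2.9e-05) with SAM and 1.26 (SE 0.18, adjusted p = 0.00186) with dCas9-VPR. Its values did not fall on whole reads in any of the 8 libraries. Those of HBBP1 and BGLT3 did in all 6 activated libraries, and were 0 in control. The values of TRIM5 and TRIM6 also missed whole reads in most libraries, so this trait was not particular to AC104389.5. Whether the signal of AC104389.5 is reads shared with HBG2 was not tested. The call with dCas9-VPR was lost at a pseudocount of 1 (0.82), and the gene fell under the filter when only the 4 libraries compared were used.

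Relative to HBG2, these genes stayed small. The model AC104389.6, which shares 431 exonic bases with HBG2, averaged 79.6% of HBG2 with DREAM, 76.4% with SAM and 84.4% with dCas9-VPR. HBG2 CPM may therefore not be the whole signal of the target. HBBP1 was 0.0549% ± 0.0122 (SD, n = 2) of HBG2 with DREAM, 0.0610% ± 0.0119 with SAM and 0.0436% ± 0.0060 with dCas9-VPR. DREAM overlapped with both other groups, while SAM and dCas9-VPR did not overlap. BGLT3 was 0.0338% ± 0.0012 with DREAM, 0.0487% ± 0.0060 with SAM and 0.0145% ± 0.0020 with dCas9-VPR, the last from 1 read a library. For AC104389.5 the order turned around: 0.204% ± 0.034 with DREAM, 0.271% ± 0.011 with SAM and 0.456% ± 0.019 with dCas9-VPR, with no overlap. Expressed as gain over control, AC104389.5 gained 1.97, 2.56 and 4.05 CPM per 1000 CPM gained by HBG2 with DREAM, SAM and dCas9-VPR, while HBBP1 gained 0.561, 0.619 and 0.436 CPM. These proportions were not tested.

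**Figure D2:**
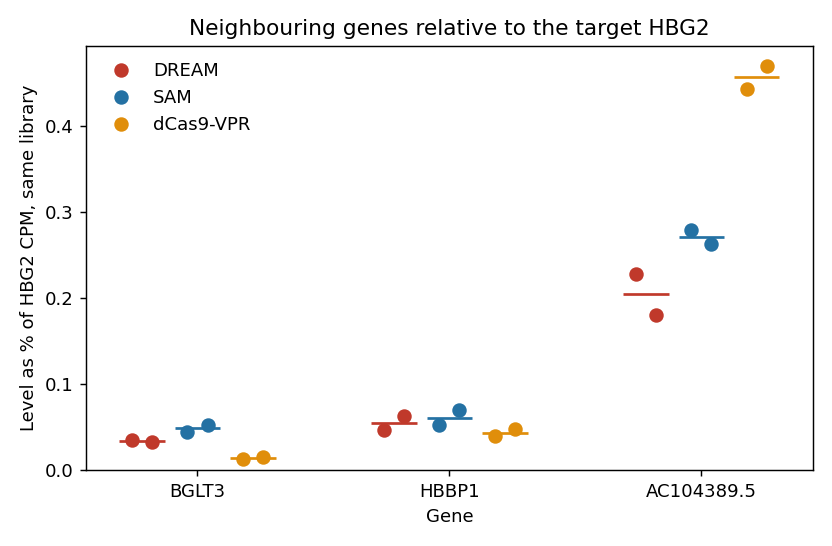
Level of BGLT3, HBBP1 and AC104389.5 as a percentage of HBG2 CPM in the same library (vertical axis, linear from 0), with points for the 2 libraries of each activated group and bars for group means. HBBP1 lies between 0.0393% and 0.0695% in all 6 libraries, and AC104389.5 is highest with dCas9-VPR, at 0.442% and 0.470%.

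HBE1 stands on the other side of the gamma-globin pair and, unlike HBBP1, was already present in control. It was 0.766 and 1.20 CPM in control, 1.14 and 1.79 with DREAM, 0.400 and 0.881 with SAM, and 0.372 and 0.449 with dCas9-VPR, from 13 to 51 reads a library. DREAM and SAM overlapped with control, and both dCas9-VPR libraries lay below it. The log2 fold changes were 0.40 (SE 0.26, adjusted p = 0.281 by limma) with DREAM, -0.40 (SE 0.26, adjusted p = 0.242) with SAM and -0.69 (SE 0.26, adjusted p = 0.0927) with dCas9-VPR, and none passed the test in the fit without a replicate block.

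OR51B5, an odorant receptor gene, was close to the limit of detection in every group. It was 0.319 and 0.0978 CPM in control, 0.411 and 0.460 with DREAM, 0.286 and 0.0569 with SAM, and 0.114 and 0.160 with dCas9-VPR, from 2 to 13 reads a library. Both DREAM libraries were above all others, while the control, SAM and dCas9-VPR libraries overlapped. In the fit without the filter the log2 fold change with DREAM was 0.42 (adjusted p = 0.181 by limma).

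TRIM6 and TRIM5, the most highly expressed of the 8 genes, moved little. TRIM6, an E3 ubiquitin ligase that acts in interferon signalling, was 8.95 and 10.3 CPM in control, 8.82 and 9.12 with DREAM, 12.7 and 12.2 with SAM, and 9.93 and 10.1 with dCas9-VPR. TRIM5, whose product restricts retroviral capsids, was 7.85 and 8.63 CPM in control, 9.23 and 9.01 with DREAM, 10.3 and 10.8 with SAM, and 8.97 and 9.25 with dCas9-VPR. Both were highest in the SAM libraries. With SAM the log2 fold changes were 0.36 (SE 0.10, adjusted p = 0.0174 by limma) for TRIM6 and 0.34 (SE 0.10, adjusted p = 0.0199) for TRIM5, below the 2-fold threshold and beside a median of 0.16 over all tested genes in that comparison. Under median-of-ratios scaling, where that median was -0.01, they were 0.18 (adjusted p = 0.189) and 0.17 (adjusted p = 0.217). With DREAM they were -0.09 (SE 0.10) and 0.14 (SE 0.10), and with dCas9-VPR 0.06 and 0.14, none past the threshold of the test. TRIM6 shares its start region with the readthrough model TRIM6-TRIM34, so its share of those reads is uncertain.

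TRIM22, an interferon-induced antiviral gene farthest from the target among the 8, was the only one of the 6 tested to be called lower than control in any comparison, with DREAM. It was 1.66 and 1.17 CPM in control, 0.664 and 0.246 with DREAM, 1.49 and 0.938 with SAM, and 1.97 and 1.28 with dCas9-VPR. Both DREAM libraries were below the other 6, but they also differed from each other, at 21 and 7 reads. The log2 fold change was -1.03 (SE 0.27, adjusted p = 0.0179 by limma) with DREAM, -0.17 (adjusted p = 0.637) with SAM and 0.14 (adjusted p = 0.745) with dCas9-VPR. The DREAM call was lost without control replicate 1 (-0.84, adjusted p = 0.106), without DREAM replicate 2 (-0.71, adjusted p = 0.0878) and at a pseudocount of 1 (-0.74). Its nearest neighbour TRIM5, within whose span it lies on the other strand, did not pass the test with DREAM. The strand setting of the authors' quantification is not given in the sources used here.

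**Figure D3:**
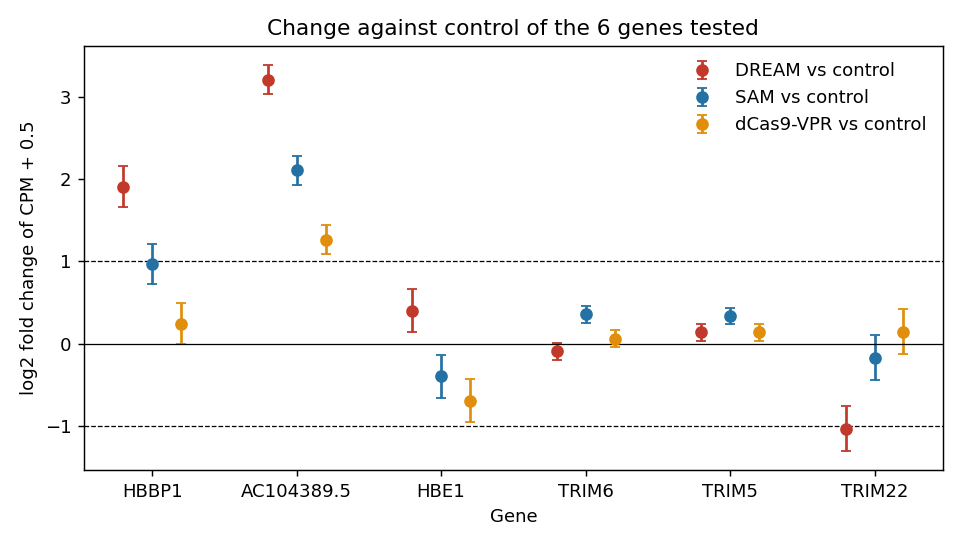
Log2 fold change of CPM + 0.5 against control (vertical axis) for the 6 genes tested, with 1 point per activator and bars of 1 SE; dashed lines mark 2-fold. AC104389.5 lies above the upper line with all 3 activators, HBBP1 with DREAM, and TRIM22 just below the lower line with DREAM.

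The activators were also compared with one another. Between DREAM and SAM, 1 gene was called, AC104389.5 (1.10, SE 0.18, adjusted p = 0.00849 by limma), against 0.721% of all tested genes; the call was lost without SAM replicate 1 (adjusted p = 0.0556) or SAM replicate 2 (adjusted p = 0.0874). HBBP1 was 0.94 higher with DREAM than with SAM (SE 0.25, adjusted p = 0.0385) on the log2 scale, short of 2-fold. Without DREAM replicate 1, HBE1 (1.04) and TRIM22 (-1.18) were called too. Between DREAM and dCas9-VPR, 4 genes were called against 0.734% of all tested genes: AC104389.5 (1.94, adjusted p = 0.000315), HBBP1 (1.67, adjusted p = 0.00302) and HBE1 (1.09, adjusted p = 0.0231) higher with DREAM, and TRIM22 (-1.17, adjusted p = 0.0203) lower. The calls of HBE1 and TRIM22 were lost without DREAM replicate 2, without either dCas9-VPR library, and at a pseudocount of 1. Between SAM and dCas9-VPR none of the 8 was called, against 2.31% of all tested genes, although AC104389.5 (0.84, adjusted p = 0.00558) and HBBP1 (0.73, adjusted p = 0.0487) were higher with SAM by less than 2-fold; both were called at a pseudocount of 0.1. Which of the pair differed more depended on the pseudocount: at 0.5 AC104389.5 had the larger difference in all 3 of these comparisons, and at 0.1 HBBP1 did (1.35 against 1.23, 2.94 against 2.30 and 1.59 against 1.07 on the log2 scale).

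Scaled by exonic length, levels of the genes can be set beside one another, in CPM per kb of exon in release 44. The length is the union of the exons of all models of a gene, so the order depends on it. For TRIM22 it is 12556 bases over 18 models and for HBE1 961 over 3. In plain CPM TRIM22 (1.42) was above HBE1 (0.984) in control. In control the order was TRIM6 (2.43), TRIM5 (1.54), HBE1 (1.02), TRIM22 (0.113) and OR51B5 (0.0526), with HBBP1 and BGLT3 at 0. With DREAM it was TRIM6 (2.26), TRIM5 (1.70), HBE1 (1.52), HBBP1 (0.976), BGLT3 (0.860), OR51B5 (0.110) and TRIM22 (0.0362), while HBG2 was 3009. In the DREAM libraries, TRIM5 and HBE1, HBE1 and HBBP1, and HBBP1 and BGLT3 overlapped with each other on this scale. With dCas9-VPR HBE1 was 0.427 CPM per kb, HBBP1 0.0626 and BGLT3 0.0306.

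In a wider window, 19 genes other than the target models HBG1, HBG2 and AC104389.6 lie within 1 Mb of the span listed for HBG1 and HBG2. Of these, 15 were tested. That span includes a long model of HBG2 (to position 5505606), whereas distances are measured from the gamma-globin pair itself, so that some genes of the window are more than 1 Mb from the pair. With DREAM 4 were called, AC104389.5, HBBP1 and TRIM22 together with CCKBR, where 2.55% of all tested genes were called. With SAM and with dCas9-VPR AC104389.5 alone was called, beside 4.34% and 1.1% of all tested genes. CCKBR, which encodes a receptor for gastrin and cholecystokinin, begins 1005022 bases from the gamma-globin pair and was 1.15 and 0.750 CPM in control, 2.63 and 2.77 with DREAM, 1.72 and 2.16 with SAM, and 1.32 and 1.60 with dCas9-VPR. Its log2 fold change with DREAM was 1.16 (SE 0.19, adjusted p = 0.00153 by limma), and the call was lost without control replicate 2 (0.96) and at a pseudocount of 1 (0.93). Between the gamma-globin pair and CCKBR, HBE1, TRIM6 and TRIM5 had changes within 0.5 of 0 on the log2 scale with DREAM. Nearness to the target and change were thus not in 1 order beyond the immediate neighbours.

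**Figure D4:**
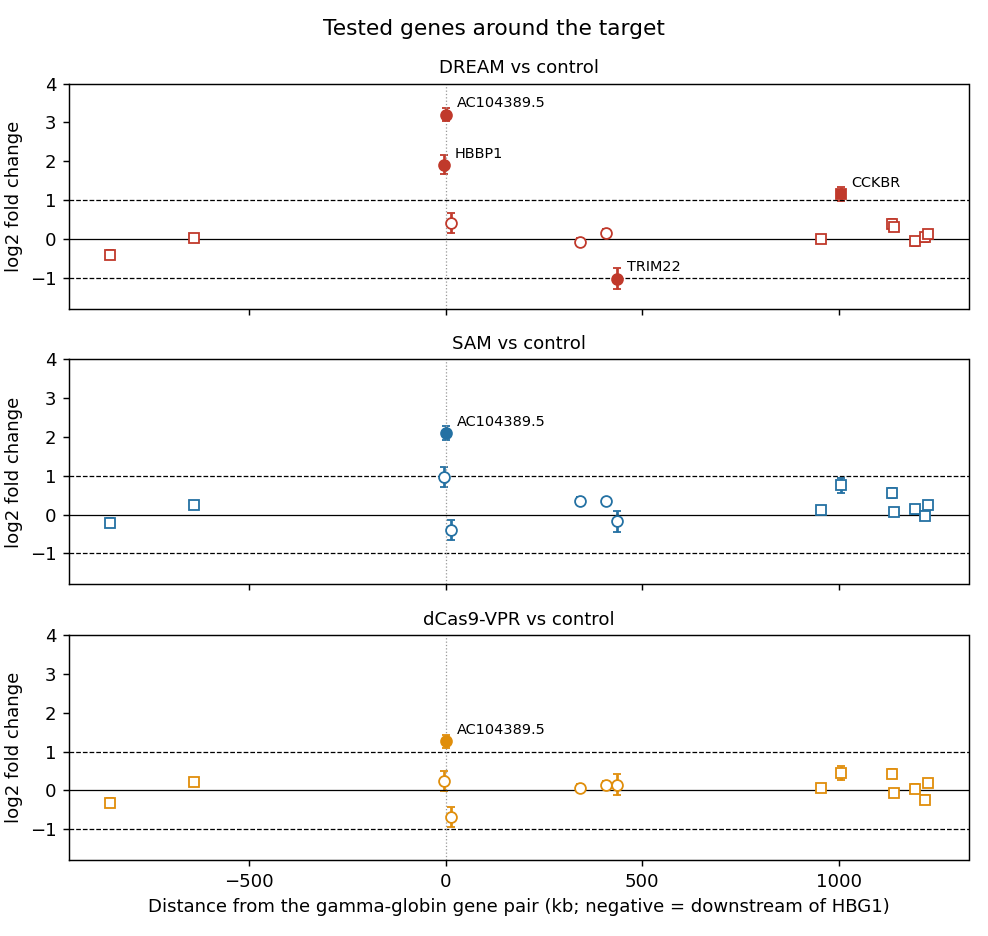
Log2 fold change against control (vertical axis, bars of 1 SE) of the 15 tested genes within 1 Mb of the listed span of HBG1 and HBG2, by distance from the gamma-globin pair in kb (horizontal axis), which can exceed the window on the side of the long HBG2 model, in 1 panel per activator; filled symbols are called, circles are the genes described here, squares other genes, dashed lines 2-fold. The called genes with SAM and dCas9-VPR are AC104389.5 alone, at distance 0.

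Other genes of the same families were looked at for context. Over all tested genes 2.55%, 4.34% and 1.1% were called with DREAM, SAM and dCas9-VPR against control. Of 5 alpha-like globin genes 2 were tested, HBA1 and HBQ1, and neither was called with any activator. Of 49 other TRIM genes 39 were tested, and 0 were called with DREAM, 1 with SAM (TRIM38, 1.37, adjusted p = 4.3e-05 by limma) and 0 with dCas9-VPR, with medians of 0.01, 0.13 and 0.07; without control replicate 1, 1 was called with DREAM and 2 with SAM. Of 34 interferon-stimulated genes 22 were tested. With DREAM 0 were called higher and 1 lower (IFI27, -1.01, adjusted p = 0.00188 by limma). With SAM 4 were called higher and 1 lower, and with dCas9-VPR 0 higher and 1 lower. Medians were 0.15, 0.51 and 0.27 beside 0.06, 0.16 and 0.06 over all tested genes. At an adjusted p under 0.05 by limma with no fold threshold, 7 were higher and 3 lower with DREAM. The counts were 13 and 1 with SAM, and 7 and 2 with dCas9-VPR. Among all tested genes 28%, 44.6% and 17.6% then passed with DREAM, SAM and dCas9-VPR. IFI27 and HERC6 (0.99 with DREAM) were near the 2-fold threshold: with DREAM 0 of the list were called without control replicate 2 or DREAM replicate 2, and 2, with HERC6 added, without control replicate 1 or DREAM replicate 1. With dCas9-VPR 2 were called, with BST2 added, without control replicate 1 or dCas9-VPR replicate 2; under median-of-ratios scaling 3 were called with SAM in all.

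Of 15 erythroid genes 4 were tested, where 2.55% of all tested genes were called with DREAM and 4.34% with SAM. Their median log2 fold changes with DREAM, SAM and dCas9-VPR were 0.38, 0.74 and 0.28, beside 0.06, 0.16 and 0.06 over all tested genes. EPOR and ANK1 were not called with any activator. EPOR had log2 fold changes of 0.07, 0.32 and 0.25, and ANK1 of 0.02, 0.29 and 0.19. NFE2, a red cell transcription factor that binds the locus control region, was called with DREAM (2.44, SE 0.17, adjusted p = 1.08e-05 by limma) and SAM (2.07, SE 0.17, adjusted p = 2.47e-05). With dCas9-VPR its log2 fold change was 0.94 (adjusted p = 0.00556 by limma), short of 2-fold, and it was called without control replicate 1 and at a pseudocount of 0.1. NFE2 was 0.319 and 0.228 CPM in control, 3.48 and 3.90 with DREAM, 2.49 and 3.01 with SAM, and 0.944 and 1.03 with dCas9-VPR. TAL1, another blood transcription factor, was called with SAM (1.15, adjusted p = 0.000995 by limma) but not at a pseudocount of 1. Its log2 fold change with DREAM was 0.69 (adjusted p = 0.0215 by limma), short of 2-fold. TAL1 was 0.734 and 0.750 CPM in control. Both NFE2 and TAL1 thus passed the filter only through activated libraries, so their calls are a description. Of the 7 defining erythroid markers 2 were in the files, at a summed 0.0326 to 0.0957 CPM in control and 0.128 to 0.370 CPM in the activated libraries, whereas all 7 HEK293T markers were present, at 464 to 668 CPM. Of 4 leukocyte markers 1 was in the files, at 2.41 to 3.72 CPM. Any part of NFE2 or TAL1 in the levels of the globin neighbours was not tested.

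For each gene called against control, the genes with the most similar pattern over the 8 libraries are given as a description. The measure was Pearson's r on log2(CPM + 0.5), which compares pattern and not level. AC104389.5 was most like SEMA7A (r = 0.997) and HDAC1 (r = 0.994), HBBP1 most like POLDIP2 (r = 0.988) and FTCD (r = 0.988), and TRIM22 most like LDLRAD4 (r = 0.982) and GOLIM4 (r = 0.974). All share the same libraries and group structure. SEMA7A, a membrane-bound semaphorin, was 3.41 and 4.56 CPM in control, 13.3 and 13.3 with DREAM, 8.80 and 9.21 with SAM, and 6.47 and 6.32 with dCas9-VPR. HDAC1 was 261 and 262 CPM in control and 336 and 341 with DREAM, far above the level of AC104389.5.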

How the data were processed

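RNA-seq libraries of HEK293T cells, 2 in each of 4 groups, were grouped by their labels. Per the study's methods, the authors aligned paired 75-base reads with STAR 2.7.3a to hg38 with Gencode release 36, quantified transcripts by a Bayesian approach and tested with DESeq2 3.5. The deposited values are CPM per gene, with 0.0001 added, which was subtracted. Steps between low values gave estimated depths of 28.5 to 35.2 M reads a library (3 reads are 0.0853 to 0.105 CPM); 65.6% to 74.8% of low values fell within 0.05 of a whole read, so no count test was run.

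Genes at 1 CPM or more in at least 2 libraries (15122) were fitted on log2(CPM + 0.5) with limma 3.58.1 in R 4.3.3 (trend, robust; 1 coefficient per group, 4 residual degrees of freedom, Benjamini-Hochberg adjustment). A call needed a fold change above 2 and an adjusted p under 0.05, in 6 comparisons. The fit was tested on simulated data. Alternatives were other pseudocounts, no filter, median-of-ratios scaling, only the compared libraries, a replicate block, no fold threshold and leaving out each library. Exons came from Gencode release 44. Python 3.11.15 and matplotlib drew the plots.

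The 8 genes, the lists and the tests were chosen with earlier results of these data known. Genes were named as follows: all 8, HBG2, the model AC104389.6 that shares exons with HBG2, and any other gene within 1 Mb called against control. Up to 4 genes a list by size of change and the 2 genes most like each called gene were named too.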

Additional observations from a re-analysis of the deposited data

How the results depend on the processing

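HBG2 kept its direction and call in all alternatives run, and AC104389.5 was called with DREAM and with SAM against control in each. At a pseudocount of 1 the genes called among the 8 fell to 0 for dCas9-VPR against control, 0 for DREAM against SAM and 2 for DREAM against dCas9-VPR, and those within 1 Mb to 2 with DREAM and 0 with dCas9-VPR. Over all tested genes 0.648% were then called with dCas9-VPR and 1.71% with DREAM against control. The shares were 0.331% for DREAM against SAM and 0.337% for DREAM against dCas9-VPR. At a pseudocount of 0.1, 2 of the 8 were called with SAM against control (2 within 1 Mb) and 2 for SAM against dCas9-VPR. Over all tested genes the shares were 6.32% and 3.84%. With only the 4 libraries compared, 0 were called with dCas9-VPR, of the 8 or within 1 Mb, since AC104389.5 was then under the filter. Of all tested genes 1.14% were called there. With no fold threshold, 4 of the 8 were called with SAM against control, 3 for DREAM against SAM and 2 for SAM against dCas9-VPR. Over all tested genes 44.6%, 10.7% and 29.9% were called in these comparisons. Within 1 Mb, 7, 7 and 2 were called with DREAM, SAM and dCas9-VPR against control, beside 28%, 44.6% and 17.6% of all tested genes.

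Leaving out each library in turn gave log2 fold changes of AC104389.5 against control of 3.03 to 3.38 with DREAM. With SAM they were 1.93 to 2.28. For DREAM against SAM they were 1.02 to 1.18, and for DREAM against dCas9-VPR 1.91 to 1.96. TRIM22 was -1.35 to -0.71 and CCKBR 0.96 to 1.36 with DREAM against control, and HBBP1 0.80 to 1.13 with SAM. Such fits leave 1 library in a group, so effect sizes alone are given here. Small differences also changed sign: TRIM5 between DREAM and dCas9-VPR was -0.0198 under median-of-ratios scaling and -0.0190 to 0.0232 with 1 library left out. With 1 library left out, TRIM6 was -0.19 to 0.0035 with DREAM and -0.037 to 0.16 with dCas9-VPR against control, TRIM22 was -0.40 to 0.063 with SAM and -0.092 to 0.38 with dCas9-VPR, and HBE1 between SAM and dCas9-VPR was -0.0154 to 0.60; none of these passed the test.

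Labels number the replicates in each group but do not say what a number marks, and the replicate differences of the groups correlated at 0.133 to 0.326 over 15122 genes. With the replicate block 3 of the 8 genes were called with DREAM against control, 1 with SAM and 1 with dCas9-VPR, as without it. Over all tested genes 2.59%, 4.36% and 1.13% were called with the block. The difference of HBE1 between dCas9-VPR and control (-0.69) then had an adjusted p of 0.0137 by limma, short of 2-fold. Median-of-ratios scaling moved the split of all called genes with SAM from 588 higher of 657 to 374 of 484, and for DREAM against SAM from 18 of 109 to 25 of 84. Depth limits the low genes: BGLT3, HBBP1, OR51B5 and HBE1 had at most 52 reads in any library, and AC104389.5 an estimated 1.18 and 5.65 reads in the control libraries.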
